A study of Danio rerio with 6 samples.

Results

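Lysosomal glycosidases cut single sugars off glycoproteins, glycolipids, glycosaminoglycans and glycogen inside the acidic lysosome. Each removes a particular sugar, and some share one, as the alpha-mannosidase and the beta-mannosidase both remove mannose. In the gut of a zebrafish larva much of this digestion takes place in lysosome-rich enterocytes, cells of the posterior intestine that take up protein from the lumen and break it down internally. The genes examined here are 10 by name (naga, neu1, glb1, hexa, hexb, man2b1, gaa, gla, manba and gusb), of which 8 have a row among the 15419 rows of the count table. The roles given to them below are those known from mammalian enzymes. gaa (acid alpha-glucosidase, which degrades glycogen) and gusb (beta-glucuronidase) have no row under these symbols and were not analysed here. hexa, which encodes the alpha subunit of beta-hexosaminidase, is listed at 0 counts in all 6 libraries, which allows up to 0.115 to 0.140 CPM (3 counts) for counting error alone. Whether this 0 reflects the gene or the annotation and counting behind the table is not known, so no absence of hexa is read from it. The other 7 passed the filter on low counts and were tested among 11466 genes.

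The libraries were made from gut RNA of wild-type zebrafish larvae (Danio rerio) labelled as 5 days post-fertilization, with 10 to 15 dissected guts pooled in each. In 3 libraries, called transected here, the gut had been cut through 24 h earlier, and the other 3, whose labels mention no cut, were taken as uncut controls. Both groups are wild type, no other treatment is named, and a library is a pool rather than an animal. Libraries held 21525093 to 25131242 counts. Summed markers of absorptive enterocytes ran from 41695 to 51434 CPM (counts divided by the scaled size of the library) in transected and from 50489 to 54364 in control guts, although fabp2, one of the defining markers, averaged 0.316 and 0.215 CPM. On the first principal component (47.0% of the variance) the replicate 1 libraries of both groups lay at -33.1 and -44.3 and the other 4 at 0.00368 to 48.5. The glycosidase results and the values of most related genes and lists are therefore also given without both replicate 1 libraries. Control replicate 2, at 48.5, stood apart as well, with transected replicate 2 next at 15.5. Leaving out that control alone gave log2 fold changes of -1.50 for man2b1 and -0.94 for naga, against -1.82 and -1.20 with all 6 libraries.

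Every transected library held less transcript of man2b1, naga and glb1 than every control library, by a mean of 3.53-fold, 2.30-fold and 1.74-fold. neu1 and hexb were lower on average, with overlapping groups. manba was slightly higher on average, and gla was high in both replicate 1 libraries. In edgeR's quasi-likelihood test, adjusted over all genes, 0 of the 7 passed in either direction, where 0% of all genes tested passed as lower and 0.0174% as higher. At an unadjusted p under 0.05 the test had 4 of the 7 as lower (3.55% of all genes tested) and 0 as higher (4.32%). For 3 of the 7 every transected library lay below every control (6.38% of all genes tested), and for 0 above (7.48%). The median log2 fold change of the 7 was -0.53, beside 0.00 over all genes tested, and 6 of the 7 were negative against 49.5% of all genes.

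The calls changed with the libraries and with the tool. Without the replicate 1 libraries, with 2 libraries a group, 5 of the 7 (man2b1, naga, glb1, neu1 and hexb) passed as lower in edgeR, where 1.5% of all genes tested passed as lower, and 0 passed as higher (0.866%). The median of the 7 was then -0.71. Without both replicate 2 or both replicate 3 libraries, fits added after the data were seen, 0 of the 7 passed in edgeR. DESeq2 on all 6 libraries called man2b1 and naga lower (0.597% of all genes tested) and 0 of the 7 higher (0.864%), and limma-voom called 0. The members were chosen with earlier results of these data known, so these counts describe them and are set beside the background only for scale. The shares of all genes tested given here and above are also the background for the counts of the lists below.

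**Figure D1:**
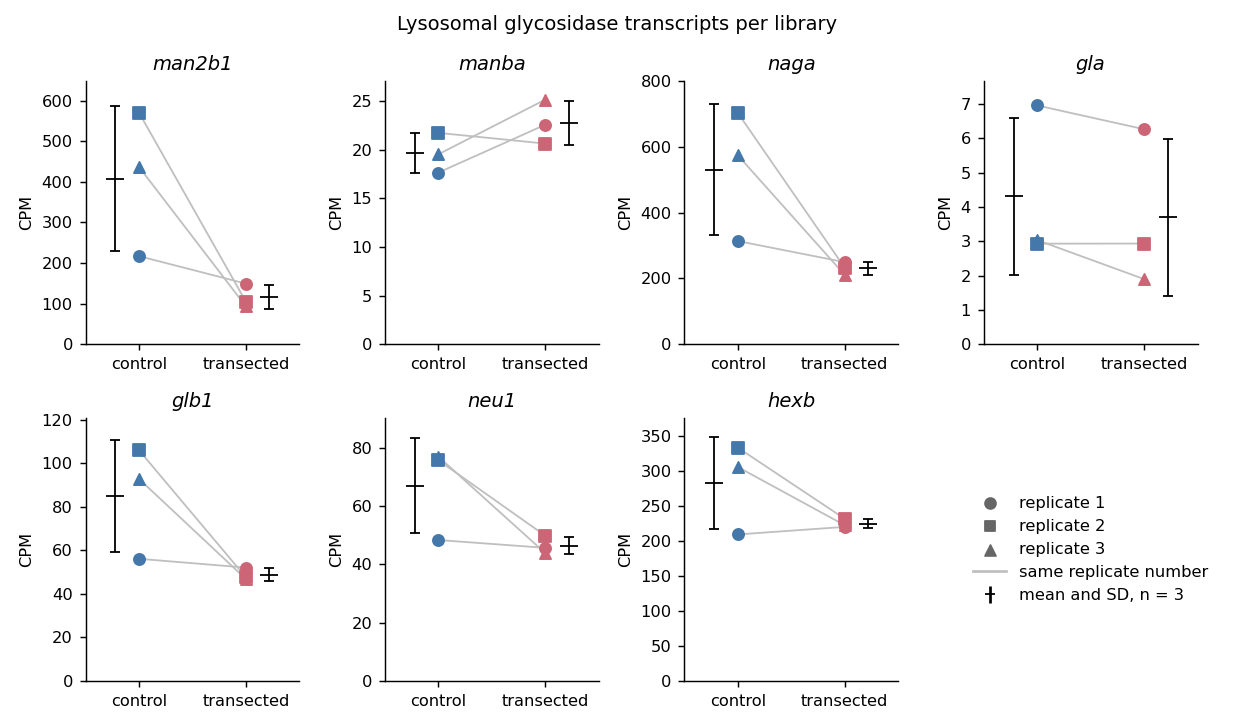
Level of each tested glycosidase in CPM on a linear axis from 0, with a circle, a square and a triangle for replicates 1, 2 and 3, grey lines joining equal replicate numbers and bars giving the mean and SD of 3 libraries. For man2b1, naga and glb1 every transected point is below every control point, and the replicate 1 control (man2b1 217 CPM) lies nearest to the transected libraries.

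The mannosidases had log2 fold changes of opposite sign, neither past the threshold with all 6 libraries, and the difference between them was not tested. man2b1, the lysosomal alpha-mannosidase that trims N-glycans of glycoproteins, had 149, 105 and 93.1 CPM in transected replicates 1, 2 and 3 and 217, 571 and 437 CPM in controls 1, 2 and 3. All transected libraries were below the lowest control, and control replicate 1 was less than the other controls. The means were 116 ± 29.6 and 408 ± 179 CPM (SD, n = 3 libraries a group here and below). The log2 fold change was -1.82 (SE 0.38, edgeR adjusted p = 0.363), and only 0.148% of the genes tested had a more negative one. Libraries of equal replicate number are called pairs here. Transected over control, the ratio was 0.688 in pair 1, 0.183 in pair 2 and 0.213 in pair 3. Without both replicate 1 libraries the log2 fold change was -2.36 (SE 0.16, edgeR adjusted p = 0.00944), and DESeq2 with all 6 gave -1.83 (adjusted p = 0.000189). Over the 20 alternatives it ran from -2.36 to -1.43 and passed in 4, with adjusted p from 9.03e-38 to 0.9999.

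manba, the beta-mannosidase that removes the last mannose of the N-glycan core, had 22.6, 20.6 and 25.1 CPM in transected and 17.6, 21.7 and 19.5 CPM in control guts. The groups overlapped through control replicate 2, which lay above transected replicate 2. The log2 fold change was 0.21 (SE 0.13, edgeR adjusted p = 0.762), and the spread within groups was small, with a coefficient of variation of 9.95% in transected and 10.4% in control guts. It kept a positive sign in all 20 alternatives, from 0.13 to 0.36, and passed in 0 of them. For man2b1 the coefficient of variation was 43.8% in controls and 25.6% in transected guts.

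Of the enzymes that remove galactose or N-acetylgalactosamine, naga and glb1 were lower in every transected library than in every control, and gla was not separable from its spread. None of them passed in edgeR with all 6 libraries. naga, which encodes alpha-N-acetylgalactosaminidase, had 249.5, 233 and 211 CPM in transected and 314, 703 and 574.5 CPM in control guts. The transected libraries lay close together, and every one was below control replicate 1, the lowest control. The means were 231 ± 19.5 and 530.5 ± 198.5 CPM, with a log2 fold change of -1.20 (SE 0.29, edgeR adjusted p = 0.413). The transected over control ratio was 0.796 in pair 1 against 0.331 and 0.367 in pairs 2 and 3. Without both replicate 1 libraries the log2 fold change was -1.54 (SE 0.13, edgeR adjusted p = 0.0105), and in DESeq2 with all 6 it was -1.21 (adjusted p = 0.00834). It passed in 4 of 20 alternatives, with adjusted p from 6.43e-21 to 0.9999.

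glb1, the lysosomal beta-galactosidase that acts on GM1 ganglioside and keratan sulfate, had 52.1, 47.6 and 46.8 CPM in transected and 56.1, 106 and 92.8 CPM in control guts. The groups did not overlap, though transected replicate 1 and control replicate 1 lay close together. The log2 fold change was -0.80 (SE 0.23, edgeR adjusted p = 0.473). The ratio of transected to control was 0.928 in pair 1, 0.449 in pair 2 and 0.504 in pair 3. It stood at -1.08 without both replicate 1 libraries (SE 0.09, edgeR adjusted p = 0.0111), whereas DESeq2 with all 6 did not call it (adjusted p = 0.102). It passed in 2 of 20 alternatives, with adjusted p from 4.92e-12 to 0.9999.

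gla, alpha-galactosidase A, the enzyme of globotriaosylceramide breakdown, had the fewest counts of the 7 tested glycosidases. It had 163, 65 and 44 counts in transected and 172, 63 and 67 counts in control libraries. At 44 counts the counting error alone is 15.1%. In CPM the values were 6.26, 2.93 and 1.90 against 6.96, 2.93 and 3.03, so both replicate 1 libraries were high and the groups overlapped. The log2 fold change was -0.22 (SE 0.54, edgeR adjusted p = 0.965) and -0.31 (SE 0.29, 0.607) without both replicate 1 libraries, and it turned positive without transected replicate 3 (0.10) or control replicate 1 (0.32). The proteins of gla and naga are related in sequence in mammals, and reads shared between them were not examined.

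The sialidase and the hexosaminidase subunit had log2 fold changes nearer to 0. neu1, the sialidase that removes terminal sialic acid and works in a complex with beta-galactosidase and the protective protein cathepsin A, had 45.6, 49.8 and 43.8 CPM after transection and 48.3, 75.7 and 76.9 CPM in control guts. Transected replicate 2 lay above control replicate 1, and the other controls were well above all transected libraries. The log2 fold change was -0.53 (SE 0.19, edgeR adjusted p = 0.568), and -0.71 (SE 0.09, edgeR adjusted p = 0.0291) without both replicate 1 libraries. It passed in 2 of 20 alternatives, with adjusted p from 3.93e-05 to 0.9999.

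hexb, which encodes the beta subunit of beta-hexosaminidase, had 220.5, 232 and 223 CPM after transection and 210, 334 and 306 CPM in control guts. Control replicate 1 was the lowest of the 6 libraries, so the groups overlapped, while the transected libraries varied by a coefficient of variation of 2.71%. The log2 fold change was -0.33 (SE 0.18, edgeR adjusted p = 0.744), with a transected over control ratio of 1.05 in pair 1, 0.695 in pair 2 and 0.728 in pair 3. Without both replicate 1 libraries it was -0.50 (SE 0.08) at an edgeR adjusted p of 0.04996, and it passed in 2 of 20 alternatives (range 0.000735 to 0.9999). The alpha subunit gene hexa, listed at 0, encodes a related protein, and reads of one counted for the other were not examined.

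**Figure D2:**
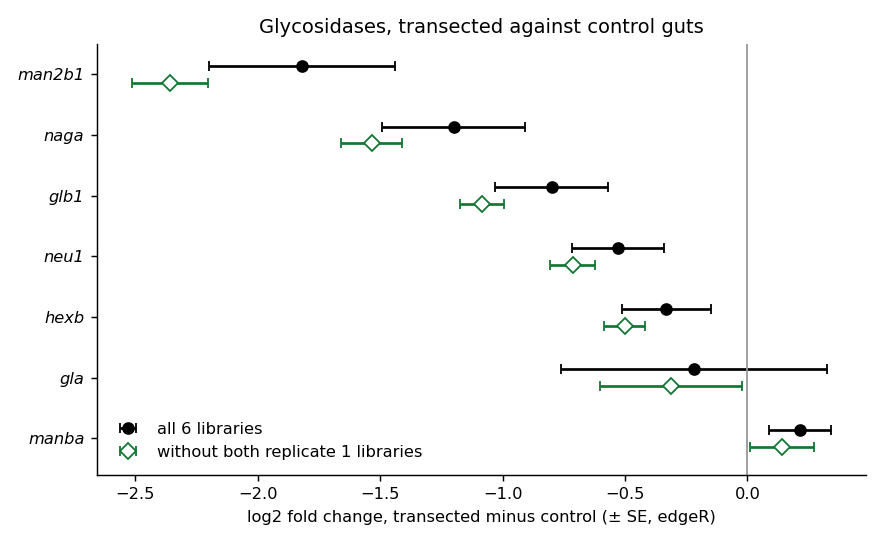
Log2 fold change of the 7 tested glycosidases, transected minus control, with its standard error from edgeR, for all 6 libraries (filled circles) and without both replicate 1 libraries (open diamonds). The values run from -1.82 for man2b1 to 0.21 for manba with all libraries, and from -2.36 to 0.14 without replicate 1.

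The 5 lower genes varied together over the 6 libraries. Among man2b1, naga, glb1, neu1 and hexb the Pearson correlation of log2 CPM lay between 0.850 (hexb with man2b1) and 0.995 (naga with glb1). manba correlated with them at -0.401 to -0.0229 and gla at -0.392 to 0.0849. These are descriptions over 6 libraries that share their groups, replicate numbers and scaling. Control replicate 2 had the highest level of man2b1, naga, glb1 and hexb, and control replicate 3 that of neu1.

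Counts set against hexb within a library depend on no scaling between libraries, but hexb was itself lower on average after transection, which raises every ratio there. For each 100 hexb counts man2b1 had 67.7, 45.1 and 41.8 after transection and 103.5, 171 and 143 in control guts. naga had 113, 100.3 and 94.5 against 149.5, 211 and 188. The groups also stood apart for glb1 (20.5 to 23.6 against 26.8 to 31.7) and neu1 (19.7 to 21.4 against 22.7 to 25.1). For manba the order was the opposite, with 8.88 to 11.3 in transected and 6.37 to 8.41 in control guts, and gla overlapped. The groups of neu1 and manba, which overlap in CPM, thus did not overlap in these ratios. For manba the mean log2 ratio differed by 0.52, against a log2 fold change of 0.21 for manba alone and -0.33 for hexb. The exact two-sided permutation p was 0.1 for each of the 5 ratios whose groups did not overlap, the smallest that 3 against 3 libraries allow, and 1.0 for gla (0.12 and 1.0 after Benjamini-Hochberg adjustment over the 6 ratios). The share of all genes whose ratio to hexb separates the groups was not computed, so the count of 5 has no background.

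**Figure D3:**
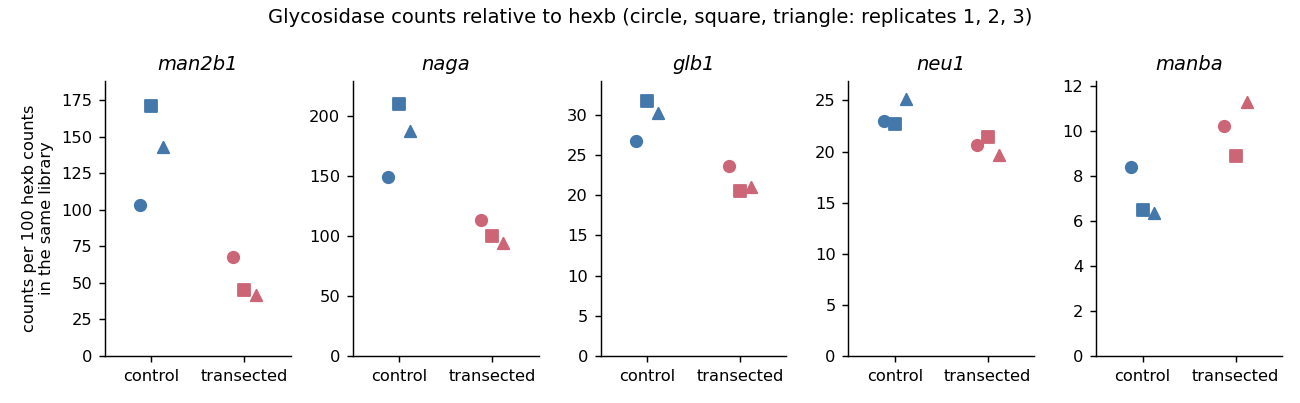
Counts of 5 glycosidases for each 100 hexb counts of the same library, by group, with axes from 0. man2b1 lies at 41.8 to 67.7 in transected and 103.5 to 171 in control guts, and manba is the one of the 5 that is higher in every transected library.

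Genes of proteins that work with these enzymes were also lower on average. ctsa, the protective protein that stabilises the sialidase and beta-galactosidase, had 154, 142 and 134 CPM in transected and 166, 280.2 and 263 CPM in control guts. All transected libraries were below all controls (log2 fold change -0.72, SE 0.21, edgeR adjusted p = 0.473, and -0.99 with 0.0105 without both replicate 1 libraries). gm2a, the activator that presents GM2 ganglioside to hexosaminidase, had a log2 fold change of -0.87 (SE 0.29, edgeR adjusted p = 0.531) with overlapping groups. psap, the precursor of the saposin activators, stood at 819 ± 13.9 against 1063 ± 227 CPM (log2 fold change -0.37, SE 0.18, edgeR adjusted p = 0.683), also with overlap. Without both replicate 1 libraries gm2a and psap passed as well (0.0354 and 0.0475 in edgeR).

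Of 9 other lysosomal glycosidases and related enzymes tested, 0 passed in edgeR, 7 were negative and the median log2 fold change was -0.10. At an unadjusted p under 0.05 there was 1, and DESeq2 called 1, both fuca1.1. Among them fuca1.1, an alpha-L-fucosidase gene, had 102, 56.1 and 63.6 CPM in transected and 121, 199 and 153 CPM in control guts. Its groups did not overlap, with a log2 fold change of -1.09 (SE 0.28, edgeR adjusted p = 0.422, 0.0174 without both replicate 1 libraries). Its paralogue fuca1.2 stood at -0.11, glb1l, a relative of glb1, at -0.50, and aga, the aspartylglucosaminidase gene, at 0.02. Also in this list, neu3.1, neu3.2 and engase stood at -0.06, -0.01 and 0.04. Whether their products lie in the lysosome was not examined. The galactocerebrosidase genes galca and galcb, which were on no list and were chosen after their values were seen, were at 155 ± 13.0 against 229 ± 69.9 CPM and 49.9 ± 4.88 against 77.7 ± 23.9 CPM. Both overlapped through control replicate 1, with log2 fold changes of -0.57 (SE 0.24, edgeR adjusted p = 0.642) and -0.64 (SE 0.24, edgeR adjusted p = 0.575). Both passed without both replicate 1 libraries (0.0294 and 0.0203 in edgeR). The 8 tested genes for sulfatases and glycosaminoglycan breakdown lay between -0.25 and 0.10 in log2 fold change, and 0 passed in edgeR, at an unadjusted p under 0.05 or in DESeq2.

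Other hydrolases of the lysosome were split. Of 22 tested 0 passed in edgeR, 15 were negative and the median was -0.22. All transected libraries were below all controls for 7 (6.38% of all genes tested) and above for 4 (7.48%). At an unadjusted p under 0.05 there were 7 lower (3.55% of all genes tested) and 3 higher (4.32%). DESeq2 called 5 lower (0.597%) and 1 higher (0.864%). lgmn, the asparaginyl endopeptidase legumain, had 791, 645 and 641 CPM in transected and 938, 2214 and 1798 CPM in control guts (log2 fold change -1.25, SE 0.31, edgeR adjusted p = 0.414, 0.00956 without both replicate 1 libraries). ctsbb, a cathepsin B gene, stood at 205 ± 52.4 against 800 ± 409 CPM (log2 fold change -1.97, SE 0.46, edgeR adjusted p = 0.412, 0.0339 without both replicate 1 libraries). In the opposite direction, ctss2.2, a cathepsin S gene, had 28.0, 19.9 and 27.9 CPM in transected and 16.5, 14.1 and 12.3 CPM in control guts (log2 fold change 0.82, SE 0.18, edgeR adjusted p = 0.387). ctsk, a cathepsin K gene, was also higher in every transected library (log2 fold change 1.08, SE 0.31, edgeR adjusted p = 0.473). DESeq2 called ctss2.2 (adjusted p = 0.0200) and not ctsk (0.0571). Neither passed without both replicate 1 libraries (0.0865 and 0.349 in edgeR). In that fit 9 of the 22 hydrolases passed as lower (1.5% of all genes tested) and 0 as higher (0.866%), and the median was -0.38.

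Genes for delivery of the enzymes showed small differences. Of 11 genes tested for mannose 6-phosphate tagging, its receptors and related sorting, 0 passed in edgeR and the log2 fold changes lay between -0.36 and 0.09, with 1 lower at an unadjusted p under 0.05 and 0 in DESeq2. m6pr, the cation-dependent receptor, was at 31.7 ± 0.410 against 33.4 ± 2.51 CPM, and igf2r, the cation-independent receptor, at 115.5 ± 18.2 against 127 ± 26.8 CPM. Of 13 lysosomal membrane and transport genes 12 were negative (median -0.24), and 0 passed in edgeR, against 2 lower at an unadjusted p under 0.05 and 1 in DESeq2 (slc17a5). slc17a5, the transporter that exports the sialic acid freed by sialidase, had 56.2, 51.3 and 45.2 CPM in transected and 74.6, 83.6 and 82.2 CPM in control guts. Its replicate 1 libraries held to their groups (log2 fold change -0.65, SE 0.11, edgeR adjusted p = 0.268, 0.0231 without both replicate 1 libraries). The groups of npc2, a lysosomal cholesterol carrier, only just failed to overlap (-0.54, SE 0.18, edgeR adjusted p = 0.525, 0.0156 without both replicate 1 libraries). Its replicate 1 libraries were nearly equal, at 156.1 CPM (4063 counts) in transected and 156.3 CPM (3864 counts) in control guts.

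The transcription factors of the MiT/TFE family, which switch on lysosomal genes in mammals, and their regulators had 0 of 16 tested genes past the threshold in edgeR, 0 at an unadjusted p under 0.05 and 0 in DESeq2, with a median of -0.08. tfeb had 10.9, 6.09 and 5.56 CPM in transected and 13.7, 12.8 and 7.83 CPM in control guts, with overlapping groups (log2 fold change -0.61, SE 0.33, edgeR adjusted p = 0.741, 0.173 without both replicate 1 libraries). tfec stood at 0.51 (SE 0.32), tfe3a at 0.08 (SE 0.14) and tfe3b at -0.32 (SE 0.28), with edgeR adjusted p of 0.769, 0.943 and 0.854. mitfa, with 2 to 12 counts a library, did not pass the filter. mitfb, named after its values were seen, had 27, 29 and 31 counts in transected and 21, 18 and 22 in control libraries, higher in every transected one (log2 fold change 0.45, SE 0.27, edgeR adjusted p = 0.761). lamtor1 and lamtor2, subunits of the Ragulator complex that anchors nutrient signalling to the lysosome, were lower in every transected library by small amounts, at -0.24 (SE 0.12, edgeR adjusted p = 0.705) and -0.20 (SE 0.11, edgeR adjusted p = 0.741). For lamtor1, transected replicate 3 (15.4 CPM, 357 counts) and control replicate 1 (15.5 CPM, 383 counts) were nearly equal. The nearest lamtor2 libraries were transected replicate 3 (14.1 CPM, 326 counts) and control replicate 1 (14.9 CPM, 369 counts). Of the brush border list symbols, sis, si, mgam, mgam2, treh and lct have no row, and lctla and lctlb did not pass the filter. No brush border glycosidase was therefore tested. Glycosidases outside the lysosome, of the secretory pathway and cytosol, had 0 of 9 tested genes past the threshold and a median of -0.06. One of them, oga, which removes N-acetylglucosamine from cytosolic and nuclear proteins, was lower in every transected library (log2 fold change -0.41, SE 0.09, edgeR adjusted p = 0.412), and it was the 1 gene of the list at an unadjusted p under 0.05 and the 1 called by DESeq2 (adjusted p = 0.0127), though not without both replicate 1 libraries (0.0726 in edgeR). In limma-voom 0 genes of these lists passed. The medians without both replicate 1 libraries were -0.16 for the other lysosomal glycosidases and related enzymes, -0.13 for sulfatases and -0.09 for mannose 6-phosphate targeting. They were -0.29 for the lysosomal membrane, -0.11 for MiT/TFE factors and regulators and -0.04 for glycosidases outside the lysosome.

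**Figure D4:**
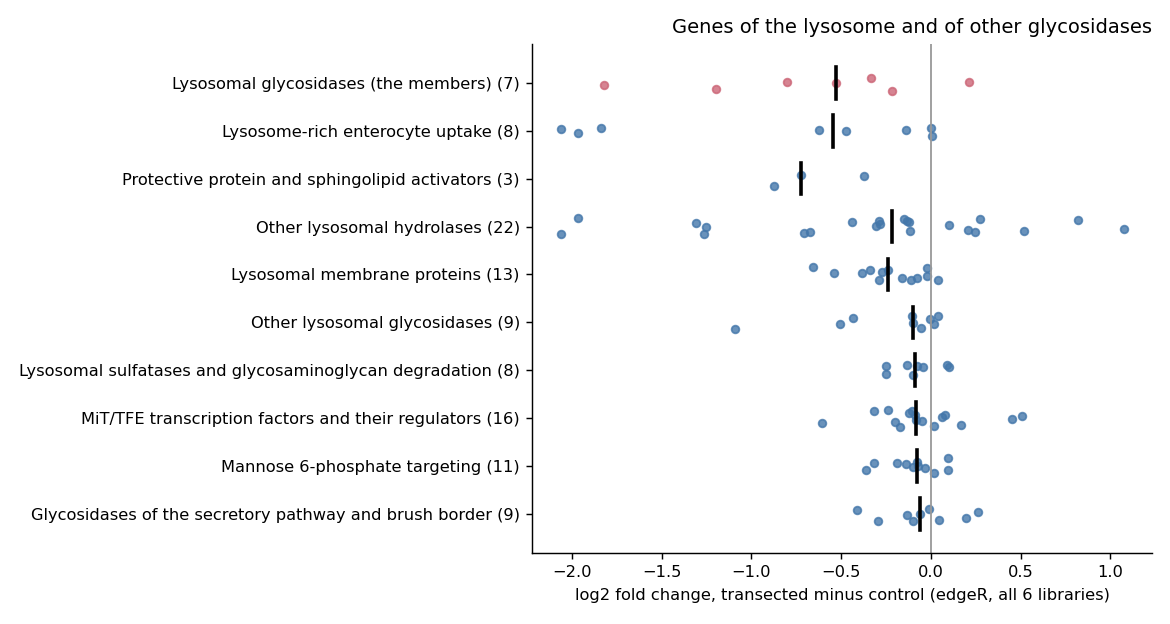
Log2 fold change, transected minus control, of each tested gene (points, spread vertically only for legibility) in the glycosidases and in 9 related lists, with the number tested in brackets and a black bar at the median. Medians run from -0.72 for the protective protein and activators to -0.06 for glycosidases outside the lysosome, with -0.53 for the 7 glycosidases.

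Genes listed for lysosome-rich enterocytes were examined beside the glycosidases. The list includes fabp6 and slc10a2, and how specific its genes are to these cells was not tested. Of 14 symbols listed, 2 are glycosidases and were left out, and 8 of the rest have a row, none at 0 throughout; cubn, amn, lrp2b and fcgrt have none under these symbols. Their summed level was 4565, 2188 and 1300 CPM in transected and 3923, 7175 and 5441 CPM in control guts, so transected replicate 1 lay above control replicate 1. In the sum this order followed fabp6, with 2642 CPM in transected replicate 1 and 1038 CPM in control replicate 1, while ctsl.1 had the opposite order. The genes slc10a2, tmigd1 and pllp had the order of fabp6, and dab2, ctsbb and lrp2a had that of ctsl.1. The median of the 8 genes in log2 CPM centred on each gene was also higher in transected replicate 1 (0.12) than in control replicate 1 (-0.22). Of the 8 tested, 0 passed in edgeR, 7 were negative and the median was -0.55. There were 3 lower at an unadjusted p under 0.05 (3.55% of all genes tested) and the same number in DESeq2 (0.597%). dab2, an endocytic adaptor, was at 66.7 ± 45.6 against 239 ± 82.6 CPM, and ctsl.1, a cathepsin L gene, had 1168, 435 and 293 CPM in transected and 2122, 3185 and 2614 CPM in control guts. Both had non-overlapping groups, with log2 fold changes of -1.84 (SE 0.53, edgeR adjusted p = 0.473) and -2.06 (SE 0.53, edgeR adjusted p = 0.422). They stood at -2.78 (0.0699 in edgeR) and -3.00 (0.0188) without both replicate 1 libraries, so that ctsl.1 passed and dab2 did not. fabp6, an ileal bile acid-binding protein gene, stood at 0.00 and pllp, the plasmolipin gene of these cells, at -0.14. All 8 were negative without both replicate 1 libraries, with a median of -0.93, fabp6 at -0.92 and pllp at -0.28. In that fit 2 passed as lower in edgeR (ctsbb and ctsl.1), where 1.5% of all genes tested passed as lower. These 2 are also among the 22 hydrolases above, and with dab2 they are the 3 that were lower at an unadjusted p under 0.05. In bulk RNA, fewer cells of a type and less RNA per cell cannot be told apart, and the part of these cells in the glycosidase levels was not tested.

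Macrophages also carry many lysosomal enzymes, and most of their markers were higher on average in transected guts. Of 18 symbols 16 have a row, and mpeg1.1, c1qa, c1qb and c1qc are at 0 in every library. The summed level was 255 to 305 CPM in transected and 164 to 219 CPM in control guts. Of 11 markers tested 9 were positive, the median log2 fold change was 0.67 and 0 passed in edgeR. There were 6 higher at an unadjusted p under 0.05 (4.32% of all genes tested) and 4 in DESeq2 (0.864%). The largest log2 fold change was that of mpeg1.2, a macrophage perforin gene, at 3.02 (SE 0.33, edgeR adjusted p = 0.121). It had 29.7, 24.8 and 38.6 CPM in transected and 5.62, 2.93 and 2.85 CPM in control guts. The 2 negative markers were cd74a (-0.06) and cd74b (-0.16), and grn1 stood at 0.18. In the fit without both replicate 1 libraries 3 passed as higher (0.866% of all genes tested), with a median of 0.47. Neutrophil markers, with 11 of 13 symbols in the table and nccrp1 at 0, had 9 of 10 tested positive and a median of 0.96. Of these 0 passed in edgeR, with 6 higher at an unadjusted p under 0.05 (4.32% of all genes tested) and 2 in DESeq2 (0.864%). Without both replicate 1 libraries 7 neutrophil markers passed as higher in edgeR (0.866% of all genes tested) and the median was 2.26. Their summed level was 7464 to 16873 CPM in transected and 3364 to 15140 CPM in control guts. A sum follows its most abundant genes, and the median of the tested neutrophil markers ordered the libraries differently. In log2 CPM centred on each gene, that median was 0.06, 0.53 and 0.99 in transected replicates 1, 2 and 3. In controls 1, 2 and 3 it was -0.09, -1.37 and -1.30. Control replicate 2, at 15140 CPM in sum, thus had the lowest median. Hepatocyte markers, with 12 of 13 symbols in the table, were negative for 11 of 11 tested, with a median of -0.63 (-0.64 without both replicate 1 libraries). Of these 0 passed in edgeR or DESeq2, and 1 had an unadjusted p under 0.05. Their summed level was 12294, 6571 and 7182 CPM in transected and 19768, 8464 and 14224 CPM in control guts. Skeletal muscle markers summed to 6000, 2704 and 4850 CPM in transected and 8435, 849 and 3374 CPM in control guts. Exocrine pancreas markers summed to 52019, 74656 and 105698 CPM in transected and 28292, 91938 and 51087 CPM in control guts. In edgeR with all 6 libraries 0 genes of either list passed. At an unadjusted p under 0.05, 2 muscle markers and 1 pancreas marker were higher, and DESeq2 called 0 and 1 as higher. Without both replicate 1 libraries 2 muscle markers (median 1.07) and 0 pancreas markers (median 0.28) passed as higher in edgeR. The neutrophil and pancreas sums were both lowest in control replicate 1 and highest in transected replicate 3. The neutrophil list includes the carboxypeptidase gene cpa5, and the pancreas list includes the carboxypeptidase genes cpa1, cpa4 and cpb1. The part of cpa5, and of pancreas, in the neutrophil sum was not tested. The part of these cell types in the glycosidase levels, and of macrophages and neutrophils in those of ctss2.2 and ctsk, was not tested.

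**Figure D5:**
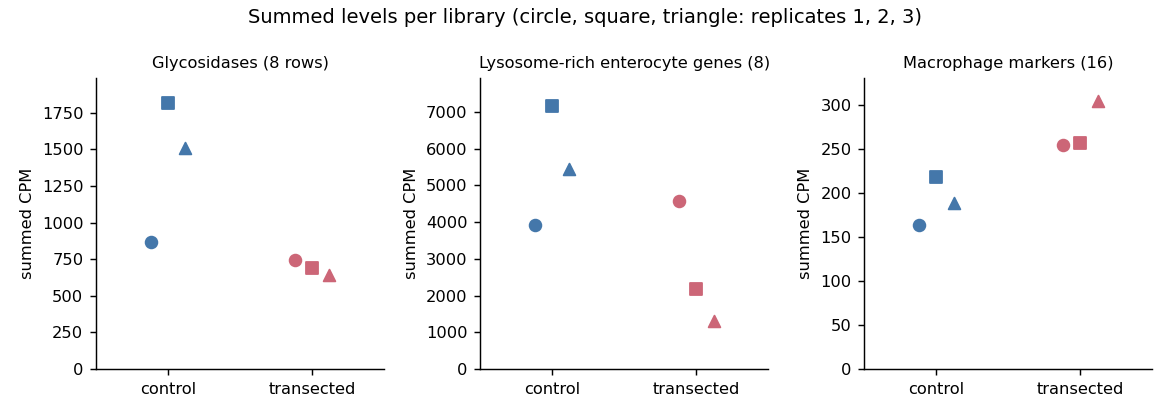
Summed CPM per library of the 8 glycosidase rows, of 8 genes listed for lysosome-rich enterocytes (fabp6 and slc10a2 included) and of 16 macrophage markers, with axes from 0. The glycosidase sum is 644 to 746 in transected and 870 to 1814 in control guts, the enterocyte sum overlaps between groups through the replicate 1 libraries, and the macrophage sum is higher in every transected library.

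Among 8297 other genes with a mean of at least 5 CPM, those whose log2 CPM followed the mean of the 7 glycosidases most closely over the 6 libraries were scpep1, susd4, pttg1ipb, acp7 and zgc:174356, with Pearson correlations of 0.998, 0.996, 0.991, 0.991 and 0.990. scpep1, a serine carboxypeptidase gene that is also among the 22 hydrolases above, stood at 112 ± 30.8 against 277 ± 107 CPM (log2 fold change -1.31, SE 0.35, edgeR adjusted p = 0.443). acp7, an acid phosphatase gene, stood at 34.2 ± 4.69 against 73.1 ± 23.2 CPM (log2 fold change -1.09, SE 0.25, edgeR adjusted p = 0.412). The mean profile of the glycosidases that ranked them is itself lower in every transected library, so the direction of these 5 follows from the choice. With 6 libraries and 8297 genes ranked, correlations this high describe the ranking and carry no test.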

How the data were processed

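The authors deposited raw counts per gene symbol for 6 libraries, without normalization. Per the labels' protocols, stranded mRNA libraries of pooled guts were read as 100 bp pairs, checked with FastQC 0.11.8 and aligned to danRer11; which aligner, counter, strand setting and annotation were used is not given in the sources used here. Replicates are labelled biological, though whether their fish came from separate clutches is not stated.

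Low counts were removed with filterByExpr, which asked for about 10 counts at the median library size in at least 3 libraries. It also asked for 15 counts in total, and a gene could pass through a single group. The rest were scaled with TMM (factors 0.935 to 1.05) and fitted over the whole table with edgeR 4.0.16 in R 4.3.3 (quasi-likelihood, robust, group only). Tests were two-sided, with Benjamini-Hochberg adjustment over all genes tested and a threshold of 0.05. CPM uses the TMM-scaled library size. The SE is the log2 fold change over the root of F. DESeq2 1.42.0 and limma-voom (limma 3.58.1) were alternatives. The pipeline was tested on simulated data. The counts there were drawn independently for each library, without differences shared by libraries of equal replicate number. That simulation therefore cannot show how the calls depend on the replicate 1 libraries. Correlations used log2 CPM with a prior count of 2.

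Deviations from group means over 11466 genes correlated at 0.450, 0.512 and 0.177 between libraries of equal replicate number, each above 0.1, so the numbers were taken as pairs in a blocked alternative. Between unequal numbers the correlations ran from -0.527 to 0.118, so transected replicate 2 with control replicate 3 also lay above 0.1. The sample titles of replicates 2 and 3 share a further number between the groups, and those of replicate 1 do not. No label states a pairing. Within a group libraries differed by more than counting noise, with chi-square values of 26.4 to 243 per degree of freedom.

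The members and lists were chosen with earlier results of these data known. List symbols were matched exactly or without regard to case; 224 of 304 have a row. All members were named, with up to 2 genes per direction of each related list (mean of at least 5 CPM, non-overlapping groups, smallest p), tfeb, tfec, tfe3a, tfe3b, mitfa, the activators and the mannose 6-phosphate receptors, and the 5 most similar genes. Genes given with values outside this rule were fuca1.2, glb1l, aga, neu3.1, neu3.2, engase, galca, galcb, mitfb, dab2, fabp6, pllp, mpeg1.2, cd74a, cd74b, grn1 and fabp2. Levels of different genes were not compared, since transcript lengths were not used here.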

Additional observations from a re-analysis of the deposited data

How the results depend on the processing

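Over all genes, edgeR called 2 genes higher and 0 lower. With limma-voom, or at an adjusted p under 0.01, 0 were higher. DESeq2 called 97 higher and 67 lower, and 164 and 124 with the replicate block, which in edgeR gave 3 and 1. Leaving out 1 library gave 0 to 4 higher and 0 to 1 lower; leaving out both replicate 1 libraries gave 99 and 172 (277 and 414 in DESeq2), while leaving out both replicate 2 or both replicate 3 libraries gave 0 and 0 (these last 3 were added after seeing the data). At an unadjusted p under 0.05 edgeR had 495 higher and 407 lower.

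Of the 7 glycosidases, man2b1 and naga passed with DESeq2 (log2 fold changes -1.83 and -1.21) and with DESeq2 and the block (-1.77 and -1.14); the block in edgeR changed no glycosidase's call. Without both replicate 1 libraries man2b1, naga, glb1, neu1 and hexb passed in edgeR (-2.36, -1.54, -1.08, -0.71 and -0.50) and DESeq2 (-2.36, -1.54, -1.09, -0.72 and -0.51). Leaving out 1 library, 0 of the 7 passed, and these 5 ran from -2.12 to -1.50, -1.47 to -0.94, -1.03 to -0.61, -0.72 to -0.42 and -0.51 to -0.20. Without both replicate 2 or both replicate 3 libraries 0 of the 7 passed. manba stayed positive in the 20 alternatives; gla ran from -0.85 (without transected replicate 1) to 0.32 (without control replicate 1) and was 0.10 without transected replicate 3. The cause of these shifts was not tested. The largest shift of the all-gene median among the scalings was 0.0101 (log2). The counting error at the lowest count was 15.1% for gla and 1.39% to 4.82% for the other 6.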
